A study of Mus musculus with 12 samples.

Results

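The elastic fibre genes were followed in the lungs of mice with and without the transcription factor Nrf2 and with and without injurious mechanical ventilation. The set was defined by 9 listed gene symbols, Eln, Mfap2, Mfap4, Mfap5, Fbln1, Fbln5, Fbn1, Lox and Loxl1, and holds every probe set that the platform annotation assigns to them. This gave 13 probe sets of the 22690 on the array, for 8 of the 9 genes. No probe set was assigned to Fbn1, which was not analysed here.

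CD-1/ICR mice lacking Nrf2 (KO) or with the wild-type gene (WT) were either ventilated mechanically for 2 h with a high tidal volume of 30 ml/kg (HVT) or breathed spontaneously for 2 h (SpV). Lung RNA was measured on 12 arrays of the Affymetrix Murine Genome 430A type, with 3 each for KO HVT, KO SpV, WT HVT and WT SpV. The labels give no age, and they do not say whether the replicates were separate animals, so p-values measure the spread between these arrays, which may be technical. The labels give the left lobe for 11 arrays and the whole lung for 1, WT SpV array 1.

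Elastic fibres give the lung its recoil. They consist of a core of cross-linked elastin on a scaffold of microfibrils, and are laid down by fibroblasts, smooth muscle cells, endothelial cells and mesothelial cells mostly during development, after which the protein turns over slowly. Soluble tropoelastin is guided onto microfibrils by fibulins and is then cross-linked by copper-dependent lysyl oxidases. Transcript levels over 2 h therefore describe RNA and not the fibres themselves.

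Values below are normalized signals, that is, the deposited probe set signals scaled to a common trimmed mean of 500 and quantile normalized, in arbitrary units. Signals of different probe sets were not set against each other, since probe sets differ in binding. Differences are on the log2(signal + 16) scale from limma, given ± SE with 3 arrays per group. A probe set was called at a Benjamini-Hochberg adjusted p under 0.05 over all 15812 probe sets tested. Of the 13 probe sets, 12 passed the filter, a normalized signal of 100 or more on at least 3 arrays. The other, Lox probe set 1437903_at, lay between 12.4 and 57.5 on all arrays and was not tested.

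Array quality differed between the libraries, and its part in the values below was not tested. Nfe2l2, which encodes Nrf2, had normalized signals of 36.2 to 61.3 on the KO arrays and 2144.3 to 3298.2 on the WT arrays, as labelled. The trimmed mean of the deposited signals, called brightness here, ran from 73.9 on KO SpV array 1 to 469 on KO SpV array 2. KO SpV array 1 also had a 3′ to 5′ signal ratio of the beta-actin controls of 8.76, a measure that rises with RNA degradation, against 1.39 to 3.10 on the other arrays. The 5 dimmest arrays were KO SpV array 1, the 3 KO HVT arrays and WT HVT array 1, with brightness of at most 279 against 316 or more on the other 7. Markers of the lung were present on every array, with summed signals of 6 alveolar type II markers between 63014 and 88711.

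In KO lungs, Fbln5 was the member that passed the test for genotype. Averaged over both kinds of breathing, it had a log2 difference of -0.75 ± 0.14 from WT lungs (limma adjusted p = 0.016, 95% confidence interval -1.06 to -0.44), and this was the only call among the 12 member probe sets tested. In that comparison 3.29% of all probe sets were called. No member was called for ventilation in either genotype, for genotype under either kind of breathing, or for the interaction of genotype and ventilation. In some comparisons the direction was nonetheless shared by most members. Log2 differences were below 0 for 11 of 12 in the averaged genotype comparison, for 12 of 12 between genotypes in SpV lungs and for 12 of 12 in WT lungs after ventilation, where 50.8%, 52.4% and 53.1% of all probe sets lay below 0. These comparisons all include the same WT SpV arrays. Without those arrays, 9 of 12 were below 0 between genotypes in HVT lungs and 7 of 12 in KO lungs after ventilation. Averaged over breathing, 6 of 12 members had an unadjusted p under 0.05 for genotype, all below 0, against 10.6% of all probe sets. The members were chosen with earlier results of these data known, so these shares are a description and not a test of the set.

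**Figure D1:**
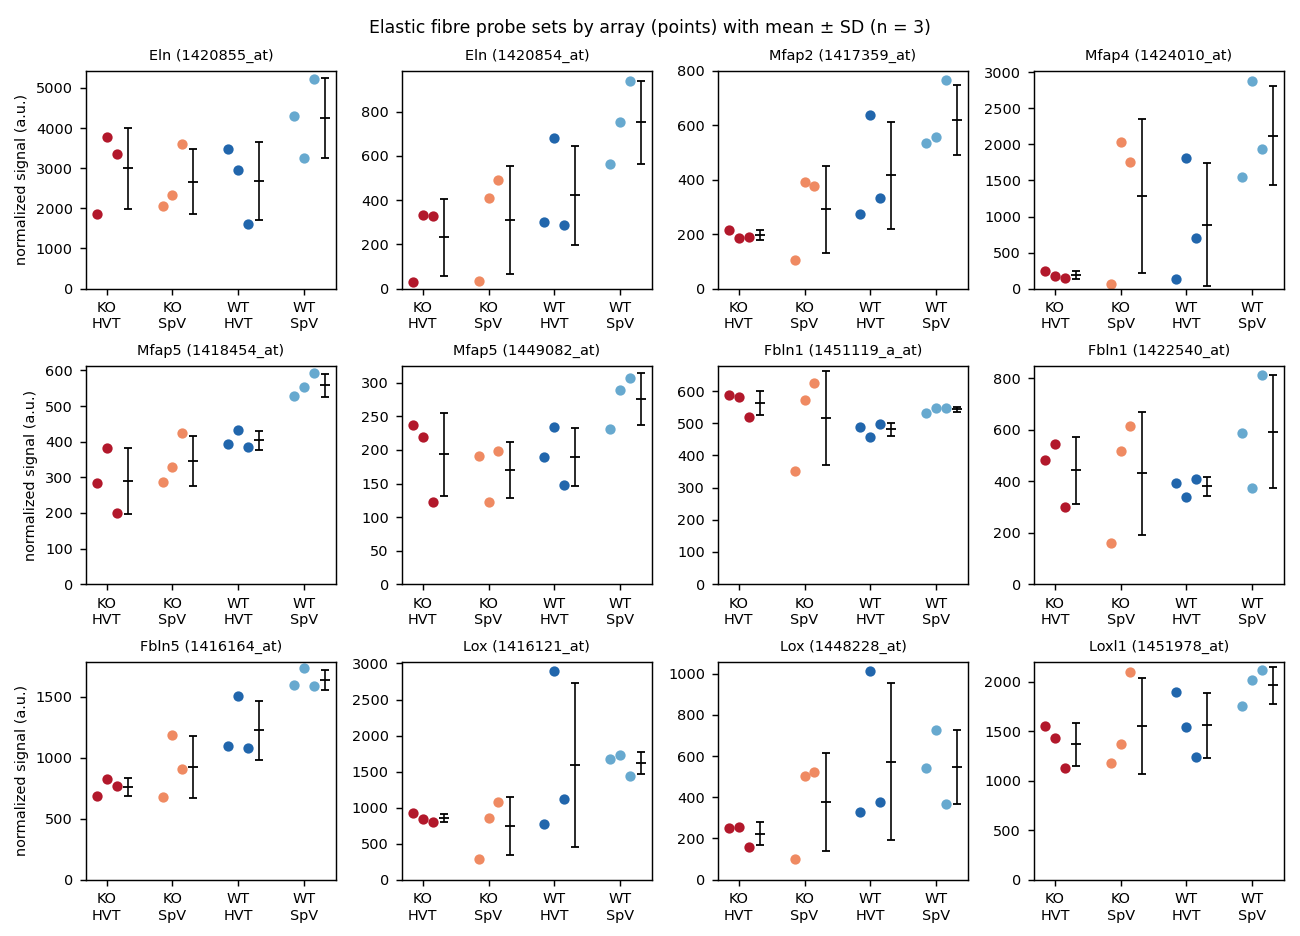
Normalized signal (arbitrary units, linear axes from 0) of the 12 elastic fibre probe sets on each array. Each point is 1 array, and black bars give the mean ± SD of 3 arrays in the KO HVT, KO SpV, WT HVT and WT SpV groups. Fbln5 lies between 680.8 and 1188.4 on the KO arrays and between 1076.1 and 1733.6 on the WT arrays, and Mfap4 is low on all KO HVT arrays, on KO SpV array 1 and on WT HVT array 1.

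Fbln5 encodes fibulin-5, which binds tropoelastin, integrins and lysyl oxidase-like 1 and is required for normal elastic fibres in mice. Its gene lies at chr12:101746565-101819119 (GRCm38.p6). The probe set 1416164_at had 685.8, 828.9 and 771.2 in KO HVT lungs, against 1092.7, 1505.4 and 1076.1 in WT HVT lungs. It had 680.8, 1188.4 and 909.6 in KO SpV lungs, against 1592.5, 1733.6 and 1584.8 in WT SpV lungs. Under each kind of breathing all 3 KO arrays lay below all 3 WT arrays. The lowest signals, 680.8 to 828.9, were on KO SpV array 1 and the KO HVT arrays, which were also the dimmest arrays. The log2 difference between KO and WT was -0.66 ± 0.20 in HVT lungs (limma adjusted p = 0.198) and -0.85 ± 0.20 in SpV lungs (limma adjusted p = 0.107), so neither comparison passed alone. The difference in HVT lungs passed without KO SpV array 1 (limma adjusted p = 0.0389), which is not part of that comparison but enters the shared estimate of the spread. Among the 12 alternative settings that kept all arrays, the difference in HVT lungs passed in 1 (limma adjusted p = 0.0449). That in SpV lungs passed in 3 of the 12 (lowest limma adjusted p = 0.00726). Members were called in SpV lungs with array weights, with the actin ratio and with brightness as a covariate. These settings called 10.9%, 3.69% and 2.21% of all probe sets there, against 0.506% in the main fit. In HVT lungs 4.6% were called without KO SpV array 1 and 5.51% with array weights, against 0.658% in the main fit.

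Ventilated WT lungs also had less Fbln5 signal, but not beyond the threshold. The log2 difference between HVT and SpV was -0.43 ± 0.20 in WT lungs (limma adjusted p = 0.694), where the 3 ventilated arrays lay below the 3 controls. In KO lungs the arrays overlapped and no direction was settled, with a limma confidence interval of -0.69 to 0.20. The KO HVT arrays, at 685.8 to 828.9, lay between the KO SpV arrays at 680.8 and 909.6. The other KO SpV array had 1188.4. Group means ran upward from KO HVT at 762 ± 72.0 through KO SpV at 926 ± 254 and WT HVT at 1225 ± 243 to WT SpV at 1637 ± 83.8 (SD, n = 3 each). Of the neighbours in that order, KO HVT and KO SpV overlapped, as did KO SpV and WT HVT. The averaged genotype call was kept in 12 of 12 fits that left out 1 array, with differences of -0.85 to -0.65 and adjusted p of 0.00719 to 0.049. It was also kept with brightness as a covariate, an alternative added after the values were seen (-0.59, limma adjusted p = 0.0215), and was lost on the deposited signals without scaling (-1.44, limma adjusted p = 0.165).

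Mfap2 encodes MAGP-1, a small glycoprotein bound to fibrillin microfibrils, and lies at chr4:141010424-141015976 (GRCm38.p6). Probe set 1417359_at had 216.3, 186.4 and 187.9 in KO HVT lungs, against 275.6, 639.0 and 332.1 in WT HVT lungs. It had 105.5, 390.3 and 377.3 in KO SpV lungs, against 535.6, 558.0 and 767.4 in WT SpV lungs. The KO arrays were again below the WT arrays under each kind of breathing. The log2 difference averaged over breathing was -1.08 ± 0.29 and missed the threshold (limma adjusted p = 0.068). It was called in 6 alternatives, without KO SpV array 1 (-0.79, limma adjusted p = 0.0316), without KO SpV array 2 (-1.23, limma adjusted p = 0.0375), with the actin ratio as a covariate (-0.79, limma adjusted p = 0.0303), with array weights (-0.81, limma adjusted p = 0.00896), without scaling (-1.57, limma adjusted p = 0.0311) and with the replicate number as a block (-1.08, limma adjusted p = 0.0436). In that order the fits called 5.41%, 4.81%, 5.8%, 12.4%, 1.22% and 4.41% of all probe sets, against 3.29% in the main fit. Without scaling the median of all probe sets was itself -0.63. Brightness moved with this probe set, since the 5 dimmest arrays were its 5 lowest, at 105.5 to 275.6 against 332.1 to 767.4 on the other 7, and with brightness as a covariate the difference was -0.61 (limma adjusted p = 0.0779).

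The DNA upstream of the annotated starts of Fbln5 and Mfap2 is shown because the genotype differences of these members are described above and the groups differ in a transcription factor. RefSeq promoter windows were found for 4 of the 9 members. Both genes have 2 annotated starts, and the windows cover the 250 bases before the outer one, 5′ to 3′ on the strand of the gene, at chr12:101819120-101819369 on the minus strand for Fbln5 and chr4:141010174-141010423 on the plus strand for Mfap2 (GRCm38.p6), and capitals mark the letters GGGCGG of a GC box on either strand.
Fbln5: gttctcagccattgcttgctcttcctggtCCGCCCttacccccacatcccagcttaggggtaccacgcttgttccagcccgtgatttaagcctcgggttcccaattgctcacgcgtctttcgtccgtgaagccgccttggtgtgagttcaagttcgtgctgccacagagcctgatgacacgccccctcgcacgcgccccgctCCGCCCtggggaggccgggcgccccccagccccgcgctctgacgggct
Mfap2: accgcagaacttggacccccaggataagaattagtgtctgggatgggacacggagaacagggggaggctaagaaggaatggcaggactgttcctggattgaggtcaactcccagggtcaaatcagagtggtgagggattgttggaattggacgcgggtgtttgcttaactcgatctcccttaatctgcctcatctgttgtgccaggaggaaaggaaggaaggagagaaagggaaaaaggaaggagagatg
The antioxidant response element core TGACNNNGC, the letters bound by Nrf2 with small MAF proteins, was searched on both strands and is in neither window, while 10.2% of 32851 windows of that length hold it. The GC box is found 2 times for Fbln5 and 0 times for Mfap2, and 32.7% of all windows hold at least 1. The search covers only these letters in these windows.

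Mfap5 encodes MAGP-2, the other microfibril-associated glycoprotein of this pair. Its probe set 1418454_at had 284.1, 383.3 and 200.4 in KO HVT lungs, against 393.3, 433.3 and 384.6 in WT HVT lungs. It had 287.0, 328.8 and 423.4 in KO SpV lungs, against 528.6, 553.5 and 592.2 in WT SpV lungs. The 3 WT SpV arrays were the highest of all 12, and KO lay below WT without overlap under each kind of breathing. The averaged log2 difference of -0.59 ± 0.15 just missed the threshold (limma adjusted p = 0.0593) and passed in 3 alternatives, without KO HVT array 2 (-0.70, limma adjusted p = 0.0327), with equal medians (-0.60, limma adjusted p = 0.0493) and with array weights (-0.49, limma adjusted p = 0.0241). In that order the fits called 2.06%, 3.49% and 12.4% of all probe sets, against 3.29% in the main fit. The second Mfap5 probe set, 1449082_at, gave a smaller averaged difference of -0.34 ± 0.19 (limma adjusted p = 0.362), or -0.20 without KO HVT array 3, and in HVT lungs its KO and WT means were 193 ± 61.8 and 190 ± 43.2 (SD, n = 3 each).

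Mfap4 had the widest spread of the members. It encodes an extracellular glycoprotein with a fibrinogen-like domain that binds elastic fibres, and lies at chr11:61485431-61488708 (GRCm38.p6). Probe set 1424010_at had 241.5, 180.8 and 143.1 in KO HVT lungs, against 67.1, 2027.3 and 1757.7 in KO SpV lungs. It had 136.7, 1813.1 and 704.8 in WT HVT lungs, against 1549.4, 2880.4 and 1929.8 in WT SpV lungs. The 12 arrays thus fell into 5 with at most 241.5 and 7 with at least 704.8.

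The log2 difference of Mfap4 between HVT and SpV was -1.74 ± 1.07 in KO lungs (limma adjusted p = 0.585) and -1.82 ± 1.07 in WT lungs (limma adjusted p = 0.811). Both values depended on single arrays. Without KO SpV array 1 the KO difference was -3.25 and passed (limma adjusted p = 0.0226), in a fit that called 6.27% of all probe sets, while without KO SpV array 2 or 3 it was -0.94 or -1.04. Averaged over genotypes the difference was -1.78 ± 0.75 (limma adjusted p = 0.332), and it passed without KO SpV array 1 (-2.53, limma adjusted p = 0.0132), with the actin ratio (-2.14, limma adjusted p = 0.0171), with brightness (-1.59, limma adjusted p = 0.0388) and with array weights (-2.29, limma adjusted p = 0.00424). In that order the fits called 6.19%, 4.84%, 3.08% and 13.6% of all probe sets, against 0.126% in the main fit. Without WT HVT array 1 the WT difference was -0.85, and without WT HVT array 2 it was -2.64, with neither passing. The 5 low arrays were also the 5 dimmest, an arrangement shown by 3 of the 12 members (Mfap4, Mfap2 and Lox probe set 1448228_at). With brightness as a covariate the Mfap4 differences were -1.24 in KO and -1.94 in WT lungs, neither passing, and the averaged genotype difference was -0.33 in place of -1.59.

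Over all probe sets tested, 3.75% had their 5 lowest signals on these 5 arrays. All 3 KO HVT arrays are among the 5.

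**Figure D2:**
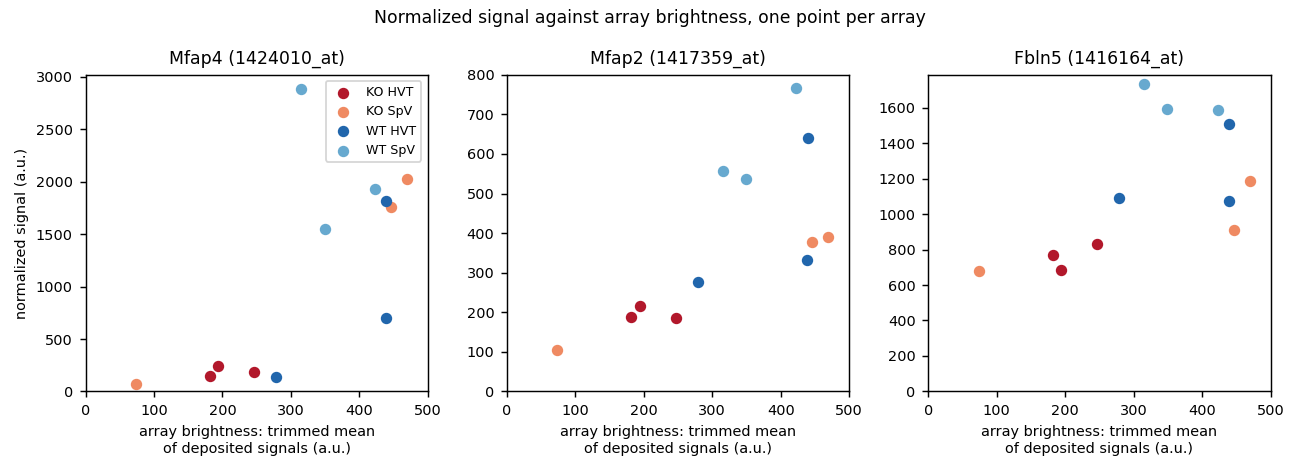
Normalized signal of Mfap4, Mfap2 and Fbln5 (vertical axes, arbitrary units) against the brightness of each array, the trimmed mean of its deposited signals (horizontal axes, arbitrary units), with 1 point per array coloured by group. The 5 arrays with brightness of at most 279 hold the 5 lowest Mfap4 and Mfap2 signals. Fbln5 has its lowest signals, 680.8 to 828.9, on KO SpV array 1 and the KO HVT arrays, the dimmest of all. On WT HVT array 1, at 1092.7, Fbln5 lies above 2 of the 3 KO SpV arrays.

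Eln encodes tropoelastin, the soluble precursor of the elastic core, and lies at chr5:134702595-134747368 (GRCm38.p6). Its probe set 1420855_at had 1852.1, 3779.2 and 3346.3 in KO HVT lungs, against 2064.9, 2338.9 and 3599.9 in KO SpV lungs. It had 3475.2, 2951.7 and 1597.3 in WT HVT lungs, against 4296.8, 3244.8 and 5226.9 in WT SpV lungs. The ranges overlapped in both genotypes, and the WT SpV group had the highest mean, 4256 ± 992 (SD, n = 3), with the other group means between 2668 and 2993. The log2 difference with ventilation was -0.71 ± 0.33 in WT lungs (limma adjusted p = 0.684, 95% confidence interval -1.44 to 0.01), and -0.38 without WT HVT array 3.

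For genotype, the same Eln probe set had a log2 difference of -0.69 ± 0.33 in SpV lungs (limma adjusted p = 0.407), and the KO and WT groups overlapped in both kinds of lung. The interaction, the change with ventilation in KO minus that in WT lungs, was 0.86 ± 0.47 and did not pass (limma adjusted p = 1), with 0.52 when WT HVT array 3 was left out. The second Eln probe set, 1420854_at, spread widely in KO lungs, with 30.9, 334.2 and 329.3 in KO HVT lungs and 33.6, 410.4 and 490.7 in KO SpV lungs, against 299.0, 679.6 and 287.5 in WT HVT lungs and 564.6, 752.8 and 939.7 in WT SpV lungs. Its 2 lowest values were on KO HVT array 1 and KO SpV array 1. The KO SpV arrays lay below the WT SpV arrays, and the averaged genotype difference was -1.48 ± 0.62 (limma adjusted p = 0.209). It was -0.94 without KO SpV array 1 and -0.62 with brightness as a covariate, and it passed on the signals without scaling (-1.79, limma adjusted p = 0.00887). Without scaling, the median of all probe sets was itself -0.63 in this comparison.

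Lox and Loxl1 encode lysyl oxidase and lysyl oxidase-like 1, the enzymes that oxidise lysines of tropoelastin and, for Lox, of collagen, before cross-links form. Lox probe set 1416121_at had 918.4, 840.3 and 806.5 in KO HVT lungs, against 772.7, 2894.6 and 1119.7 in WT HVT lungs. It had 291.7, 856.9 and 1072.8 in KO SpV lungs, against 1674.0, 1735.9 and 1441.2 in WT SpV lungs. WT HVT array 2 was the highest of all 12 arrays for both tested Lox probe sets, at 2894.6 and 1012.3, and the other 2 WT HVT arrays lay below all WT SpV arrays for the first of them. For that probe set the KO SpV arrays lay below the WT SpV arrays, with a log2 difference of -1.29 ± 0.47 (limma adjusted p = 0.278) that was -0.74 without KO SpV array 1, and the averaged genotype difference was -0.98 ± 0.33 (limma adjusted p = 0.131).

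The other tested Lox probe set, 1448228_at, gave a similar averaged genotype difference, -0.95 ± 0.39 (limma adjusted p = 0.203), or -0.59 without KO SpV array 1, but its KO values were 251.6, 257.5 and 158.7 in HVT lungs, against 101.0, 501.0 and 523.8 in SpV lungs. In KO lungs the mean of this probe set was 223 ± 55.4 with ventilation and 375 ± 238 without, while the first probe set had 855 ± 57.4 with ventilation and 740 ± 403 without (SD, n = 3 each). The 2 probe sets therefore disagreed on the direction of ventilation in KO lungs, within their spread. Loxl1, which fibulin-5 brings to the elastic fibre, was measured by probe set 1451978_at. It had group means of 1369 ± 217 in KO HVT, 1553 ± 485 in KO SpV, 1561 ± 327 in WT HVT and 1963 ± 186 in WT SpV lungs (SD, n = 3 each), with overlap in all comparisons, and an averaged genotype difference of -0.28 ± 0.16 (limma adjusted p = 0.361).

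Fbln1 encodes fibulin-1, a glycoprotein found in the amorphous core of elastic fibres, in basement membranes and in blood. It was the member closest to equal levels between genotypes. Probe set 1451119_a_at had group means of 563 ± 36.9 in KO HVT, 517 ± 145 in KO SpV, 481 ± 20.9 in WT HVT and 543 ± 8.80 in WT SpV lungs (SD, n = 3 each). Its averaged genotype difference had a 95% confidence interval of -0.24 to 0.35 on the log2 scale. In HVT lungs its KO arrays, at 520.8 to 586.6, lay above its WT arrays, at 457.3 to 497.2, the only member probe set with that arrangement. The second probe set, 1422540_at, spread more widely, from 161.0 on KO SpV array 1 to 814.0 on WT SpV array 3, and overlapped in all comparisons.

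In SpV lungs 6 of 12 member probe sets had all KO arrays below all WT arrays, against 9.32% of all probe sets, and 0 were called by limma, with 5 at an unadjusted p under 0.05, all below 0 (6.72% of all probe sets), where 0.506% of all probe sets were called. In HVT lungs 4 lay below and 1 above without overlap, against 13.3% and 11.3% of all probe sets, and 0 were called by limma, with 3 at an unadjusted p under 0.05, all below 0 (6.67% of all), where 0.658% of all were called. The median log2 difference between KO and WT of the members was -0.72 in SpV lungs and -0.58 in HVT lungs, where the medians of all probe sets were -0.02 and 0.00. Members of 1 gene share a transcript and all members share the arrays, so these counts are not independent. They are a description, since the members were chosen with earlier results of these data known.

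For ventilation the member median was -0.20 in KO lungs, between -1.74 and 0.39, and -0.48 in WT lungs, between -1.82 and -0.07. In KO lungs 0 of 12 member probe sets were without overlap, where 15% of all were, and 0 were called by limma, with 0 at an unadjusted p under 0.05, where 5.81% of all had such a p below 0 and 0% were called. In WT lungs 3 of 12 (Fbln5, Mfap5 probe set 1418454_at and Fbln1 probe set 1451119_a_at) had all HVT arrays below all SpV arrays, against 8.09% of all, and 0 were called by limma, with 0 at an unadjusted p under 0.05 (2.83% of all, below 0), while 0.0506% of all were called. Averaged over genotypes, 0 members were called by limma, with 3 at an unadjusted p under 0.05, all below 0 (6.51% of all), against 0.126% of all called. For the interaction 0 members were called by limma, with 0 at an unadjusted p under 0.05 (2.4% of all, above 0), and 0% of all were called. Its member median was 0.31, and between 0.04 and 0.67 when 1 array was left out, lowest without KO SpV array 1 and highest without KO SpV array 3. Eln probe set 1420855_at and Mfap5 probe set 1449082_at had the largest values in units of their SE, 0.86 ± 0.47 and 0.66 ± 0.39.

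**Figure D3:**
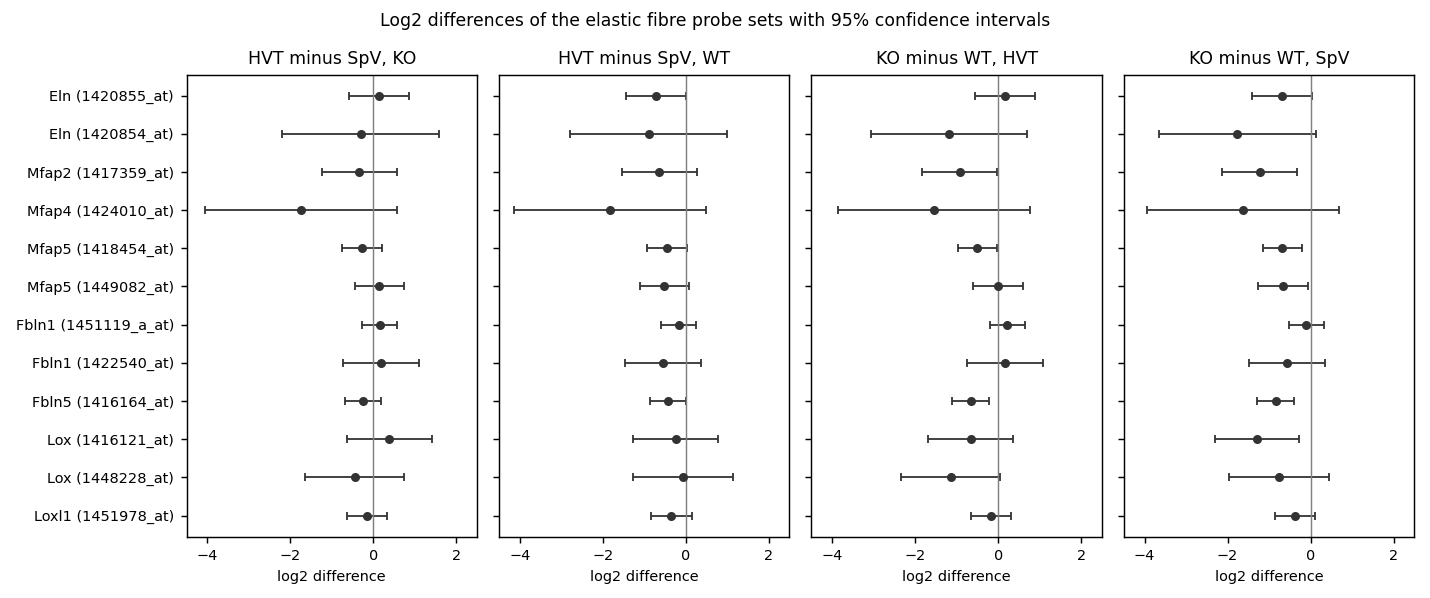
Log2 differences (points) of the 12 elastic fibre probe sets with 95% confidence intervals from limma, for ventilation (HVT minus SpV) in KO and WT lungs and for genotype (KO minus WT) in HVT and SpV lungs. All 12 points lie below 0 for ventilation in WT lungs and for genotype in SpV lungs, and the intervals of Mfap4 and of Eln probe set 1420854_at are the widest.

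Markers of cell types moved with the genotype and the arrays in the same libraries, and their part in the values above was not tested. In bulk lung, fewer cells of a type and less RNA per cell cannot be told apart. The summed signal of 8 lung fibroblast markers was 24140 to 24881 in KO HVT and 23726 to 32153 in KO SpV lungs, against 25774 to 35639 in WT HVT and 38251 to 42189 in WT SpV lungs. Of these markers, 8 of 8 were below 0 for KO against WT averaged over breathing, 1 of them called lower. In HVT lungs alone 5 of 8 were below 0, with a median of -0.16. The sum weighs bright probe sets most. Inmt had means of 7338 in KO HVT and 13917 in WT HVT lungs, while Col3a1 had 7632 and 6134. The summed signal of 8 endothelial markers was 7862 to 9648 in KO HVT and 8644 to 17874 in KO SpV lungs, against 13399 to 21492 in WT HVT and 17911 to 23619 in WT SpV lungs. Averaged over breathing, 3 of these were called lower for KO against WT, where 3.29% of all probe sets were called. In HVT lungs alone and in SpV lungs alone 0 were called.

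Muscle markers ran the other way. The summed signal of 8 smooth muscle markers was 15261 to 17676 in KO HVT and 13312 to 16714 in KO SpV lungs, against 10804 to 14649 in WT HVT and 9827 to 10490 in WT SpV lungs. That of 7 heart muscle markers was 50397 to 58556 in KO HVT and 41657 to 49631 in KO SpV lungs, against 25530 to 39193 in WT HVT and 26242 to 35853 in WT SpV lungs. For KO against WT averaged over breathing, 3 smooth muscle markers were called higher and 0 lower, and 6 heart muscle markers were called higher. In that comparison 3.29% of all probe sets were called. In SpV lungs alone 1 smooth muscle and 0 heart muscle markers were called higher, and in HVT lungs alone 0 and 5. Of 5 alveolar type I markers 2 were called lower, and of 6 alveolar type II and 6 neutrophil markers 0 were called by limma in the averaged genotype comparison. With ventilation of KO lungs the neutrophil markers were below 0 for 6 of 6, with a median of -2.07 and summed signals of 1991 to 2676 in KO HVT against 5143 to 20870 in KO SpV lungs, and 0 called. Mesothelial markers summed to 293 to 1910 and cartilage markers of large airways to 252 to 505 over all arrays. The 2 fat markers with a probe set varied most within the KO groups. They summed to 58.5 to 1320 in KO HVT and 24.7 to 519 in KO SpV lungs, against 104 to 171 in WT HVT and 133 to 166 in WT SpV lungs.

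**Figure D4:**
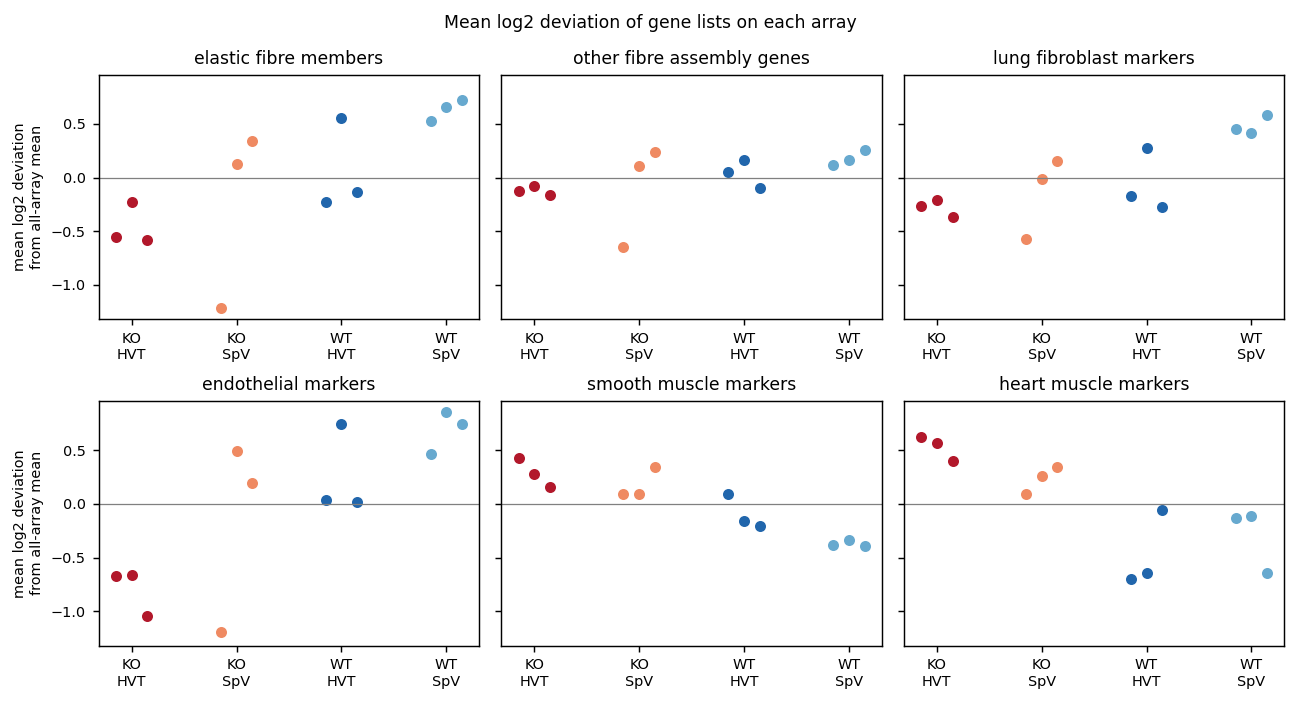
Mean log2 deviation from the average of all arrays (vertical axis) for the elastic fibre members and 5 other gene lists, with 1 point per array in each group. The members lie at -1.22 on KO SpV array 1, which is also lowest for fibroblast markers, at -0.57, and endothelial markers, at -1.19, and at 0.53 to 0.73 on the WT SpV arrays, and both muscle lists lie above 0 on all KO arrays.

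Among 20 other genes of elastic fibre assembly, 14 were tested and 0 were called in any of the 7 comparisons, with a median log2 difference of -0.18 for KO against WT averaged over breathing and 10 of 14 below 0. The members with the smallest p there were Emilin1, which encodes an elastin microfibril interfacer, at -1.69 ± 0.50 (limma adjusted p = 0.0902), and Ltbp4, which binds latent TGF-beta and takes part in elastin assembly, at -0.97 ± 0.35 (limma adjusted p = 0.156), or -0.58 without KO SpV array 1. Emilin1 signals were low, with means of 18.7 ± 18.4 in KO HVT and 87.6 ± 72.3 in KO SpV lungs, against 116 ± 55.4 in WT HVT and 197 ± 83.9 in WT SpV lungs (SD, n = 3 each). For ventilation of WT lungs the smallest p belonged to Ltbp2, another microfibril-associated latent TGF-beta binding protein, at -0.43 ± 0.19 (limma adjusted p = 0.638). In KO lungs Fbln2, which encodes fibulin-2, had 0.58 ± 0.31 and Emilin1 had -1.25 ± 0.71 with ventilation, neither passing. Without KO SpV array 1 these were 0.17 for Fbln2 and -2.20 for Emilin1, which then passed (limma adjusted p = 0.0288), as it did with array weights (-2.07, limma adjusted p = 0.0156), while without KO SpV array 2 or 3 Emilin1 had -0.75 or -0.79.

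Of 20 elastin-degrading proteases and their inhibitors, 13 were tested and 1 was called. The elastases Mmp12, Elane, Prtn3 and Ctsg did not pass the filter and were not tested. Timp3, a matrix-bound inhibitor of metalloproteinases, was lower in KO than in WT lungs averaged over breathing, with a log2 difference of -0.81 ± 0.19 (limma adjusted p = 0.0397). In SpV lungs the genotypes overlapped, at 1861.2 to 4562.4 in KO and 3948.3 to 5670.3 in WT lungs. Timp3 means were 3239 ± 119 in KO HVT and 3547 ± 1470 in KO SpV lungs, against 7303 ± 541 in WT HVT and 4598 ± 935 in WT SpV lungs (SD, n = 3 each). The averaged call was kept in 3 of 12 fits that left out 1 array, with adjusted p of 0.0694 to 0.1 in the other 9. In HVT lungs alone Timp3 had -1.17 ± 0.27 (limma adjusted p = 0.0923), which passed without KO SpV array 1 (limma adjusted p = 0.000778). Mmp9, a gelatinase that cleaves elastin, had -1.08 ± 0.25 with ventilation of KO lungs (limma adjusted p = 0.211), which passed without KO SpV array 1 (-1.17, limma adjusted p = 0.0282), and the inhibitor Timp4 had 1.46 ± 0.38 (limma adjusted p = 0.229).

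Transforming growth factor beta raises the expression of elastin and lysyl oxidase in many cells. The list for this pathway held 15 symbols, of which Ctgf is an older symbol of Ccn2. From it 12 genes were tested and 0 were called in any comparison, with 10 of 12 below 0 for KO against WT averaged over breathing and a median of -0.29. Tgfbr3, the co-receptor betaglycan, had -0.62 ± 0.17 there (limma adjusted p = 0.072), which passed without KO SpV array 1 (-0.76, limma adjusted p = 0.00793). With ventilation averaged over genotypes, the inhibitory Smad genes had -1.23 ± 0.28 for Smad6 and -0.54 ± 0.13 for Smad7 (limma adjusted p = 0.102 each), and both passed without KO SpV array 1 (-1.52 with limma adjusted p = 0.00148, and -0.52 with limma adjusted p = 0.0336). In SpV lungs Smad4, the common partner Smad, had 0.35 ± 0.18 for KO against WT (limma adjusted p = 0.437), or 0.14 without KO SpV array 1.

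The genes whose most intense probe sets most resembled those of Eln and Lox over the 12 arrays are given as a description, out of 9280 genes compared. For Eln they were Ltbp2, Rnpepl1, Col5a3, Spon2 and Pdgfrb, with Pearson r of 0.85 to 0.80 and Spearman rho of 0.75 to 0.85. For Lox they were Zfp37, Nampt, Dysf, Fut8 and Lipg, with r of 0.96 for each and rho of 0.83 to 0.96. These likenesses rest on shared arrays, with their differences in brightness and group.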

How the data were processed

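The deposited values are probe set signals, that is linear intensity values, from 12 Affymetrix Murine Genome 430A arrays, credited to GCOS 1.4 per the submitters' processing notes. The design text states a scaling to an average of 500, which the deposited intensity values do not show. Each array was therefore scaled to a mean of 500, trimmed by a fraction of 0.02 at each end, and quantile normalized, and 16 was added before log2. After leaving out 64 AFFX controls, probe sets reaching 100 on at least 3 arrays were kept. The annotation names 1 gene for 20393 probe sets, several for 691 and none for 1555. RefSeq of GRCm38.p6 changed 0 symbols. A model with a mean for each of the 4 groups was fitted over the 12 arrays (limma 3.58.1, R 4.3.3), using an intensity trend in eBayes, 8 residual and 4.38 prior degrees of freedom, no covariate, and 7 contrasts, all tests two-sided. An exact test of 3 against 3 arrays cannot go below p = 0.1. The number of arrays limits the precision, with a median SE of 0.24 between 2 groups. On simulated data with 15812 probe sets, the fit recovered 75% of log2 changes of 1 and 99% of changes of 2 in the averaged genotype comparison, and 50% and 88% in the ventilation of WT lungs. It recovered 43% of log2 changes of 1 for genotype in either kind of lung, with 82% of changes of 2 in SpV and 90% in HVT lungs, and 11% and 66% for the interaction. Among the members the SE between 2 groups ran from 0.19 for Fbln1 probe set 1451119_a_at to 1.07 for Mfap4. These rates therefore need not hold for members of wide spread, and a missing call there does not show equal levels.

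Members, lists and the normalization were chosen with earlier results of these data known. Every member probe set is accounted for. Log2 differences are printed where they exceed 1.5 SE, a limit set after the values were seen, and as ranges otherwise. From each other list up to 4 called genes, or the 2 with the smallest p, were named by the brightest probe set of each gene. Alternatives were 11 planned settings, 1 added setting and leaving out each of 12 arrays. Detection calls were not used here.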

Additional observations from a re-analysis of the deposited data

How the results depend on the processing

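Of 73 single log2 differences followed through the alternatives, 1 changed direction, Smad4 for KO against WT in SpV lungs (-0.14 on the deposited signals without scaling). Without scaling the median of all probe sets differs by -0.48 in SpV lungs, -0.80 in HVT lungs and -0.63 averaged for KO against WT, and by -0.34 in the interaction, and the member medians of -1.13, -1.40, -1.31 and -0.10 are to be read against these shifts. On that scale 3 members were called for averaged genotype (1.22% of all probe sets). Array weights called 3 of 12 members for ventilation in KO lungs (14.3% of all probe sets), 2 for genotype in SpV lungs (10.9%), 1 in HVT lungs (5.51%), 5 for averaged ventilation (13.6%) and 3 for averaged genotype (12.4%). The actin ratio as a covariate called 2 in SpV lungs (3.69% of all), 1 for averaged ventilation (4.84%) and 2 for averaged genotype (5.80%). Equal medians called 2 for averaged genotype (3.49%). Brightness as a covariate, added after the values were seen, called 1 for genotype in SpV lungs (2.21%) and 1 for averaged ventilation (3.08%), and gave a member median of -0.073 for genotype in HVT lungs. The cause of these changes was not tested.

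Leaving out 1 array gave 0 to 1 member calls for ventilation in KO lungs and for genotype in HVT lungs, 0 to 2 for averaged ventilation and 1 to 2 for averaged genotype. The higher counts came without KO SpV array 1, where 6.27%, 4.6%, 6.19% and 5.41% of all probe sets were called in these comparisons, and for averaged genotype also without KO HVT array 2 (2.06%) or KO SpV array 2 (4.81%). The member median for ventilation of KO lungs lay between -0.39 and 0.17 in these fits, and that for the interaction between 0.04 and 0.67. Fits with the replicate number as a block called 2 members, Fbln5 and Mfap2, for averaged genotype (4.41% of all), and changed no other member count. Same-numbered arrays deviated together with correlations of -0.19 to 0.38 (median 0.057), so the numbers did not pair the arrays throughout. Arrays of different numbers had -0.38 to 0.28 (median -0.004). All negative correlations between same-numbered arrays involved a KO HVT array. Over all probe sets and alternatives the calls ranged from 1 to 473 for ventilation in WT lungs, 0 to 2256 in KO lungs, 4 to 1726 for genotype in SpV lungs, 32 to 872 in HVT lungs, 0 to 351 for the interaction, 0 to 2144 for averaged ventilation and 171 to 1967 for averaged genotype, with each highest count under array weights, whose estimation gave a convergence warning. The block moved the calls for averaged genotype to 698, against 521 without it, and for averaged ventilation to 3, against 20. In the wild type it called 4 for ventilation, against 8.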

Other observations

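Mfap4, chosen here after its values were seen, was most like Mlc1, Tcf21, Cd81, Capza2 and Pip4p2 over the 12 arrays, with Pearson r of 0.98 to 0.97 and Spearman rho of 0.86 to 0.94 among 9280 genes. Tcf21 encodes a transcription factor of lung fibroblasts and is among the fibroblast markers above.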
